A study of Mus musculus with 4 samples.

Results

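Mest and Peg10-Sgce are a pair of imprinted gene domains that lie 26 Mb apart on mouse chromosome 6. The Mest domain was represented by 3 genes, Mest, Copg2 and Klf14, and the Peg10-Sgce domain by 5, Peg10, Sgce, Casd1, Ppp1r9a and Asb4. These 8 genes were taken by name from the 54532 gene identifiers counted in each library, with earlier results of these data known. RNA had been sequenced from C3H10T1/2 cells, an established mouse line of mesenchymal stem cells with the capacity to form bone, cartilage, fat or muscle. The groups were DNMT3A/B-double knockout (DKO) cells, in which the de novo DNA methyltransferases Dnmt3a and Dnmt3b were targeted together (2 libraries, clone 1 and clone 5), PRDX1MT cells with a CRISPR edit at the splice acceptor of Prdx1 intron 5, whose genotype is labelled PRDX1-KO (1 library), and unedited WT cells (1 library). Per the series' design text, the lines served to study how Mmachc, a gene next to Prdx1, is silenced. It is not stated in the labels if the DKO clones have the Prdx1 edit too, whether each edited line came from 1 cell, or how long each was grown.

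In an imprinted domain a gene is transcribed mainly from the copy of 1 parent, according to DNA methylation laid down in the germ line at a control region and then copied at each cell division by Dnmt1. Mest, Peg10 and Sgce are paternally expressed in the mouse, and the Mest and Peg10 promoters are the methylated control regions of their domains. Klf14 and Asb4 are maternally expressed, while the imprinting of Copg2, Casd1 and Ppp1r9a varies with tissue. Gene counts do not separate the parental copies, so every level below is the sum of both.

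The promoters show how differently the members are built at their start sites. RefSeq (GRCm38.p6) windows of 300 bases, 250 before and 50 after an annotated start, were held for 5 of the 8 members. Klf14, Peg10 and Sgce had no entry. The window of the main Mest start, that of Copg2, the oppositely oriented neighbour, and that of the upstream Casd1 start are shown because the levels of Mest and Casd1 differed between the lines in unlike ways, while Copg2 passed no test beside Mest. Capitals mark CpG dinucleotides, the sites of DNA methylation, and each sequence runs 5′ to 3′ on the gene's own strand.
Mest, chr6:30737800-30738099, plus strand: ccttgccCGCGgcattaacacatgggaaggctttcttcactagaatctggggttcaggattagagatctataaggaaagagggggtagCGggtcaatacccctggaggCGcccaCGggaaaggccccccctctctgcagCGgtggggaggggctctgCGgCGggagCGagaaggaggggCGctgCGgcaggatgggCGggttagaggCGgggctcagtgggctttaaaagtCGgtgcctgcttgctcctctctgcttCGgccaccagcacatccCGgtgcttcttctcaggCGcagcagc
Copg2, chr6:30896745-30897044, minus strand: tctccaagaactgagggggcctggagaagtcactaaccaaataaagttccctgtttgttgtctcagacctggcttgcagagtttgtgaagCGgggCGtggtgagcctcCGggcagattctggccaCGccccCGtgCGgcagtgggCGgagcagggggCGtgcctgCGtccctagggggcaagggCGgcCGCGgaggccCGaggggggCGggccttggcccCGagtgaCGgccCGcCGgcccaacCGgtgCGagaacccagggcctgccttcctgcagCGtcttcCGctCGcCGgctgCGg
Casd1, chr6:4600661-4600960, plus strand: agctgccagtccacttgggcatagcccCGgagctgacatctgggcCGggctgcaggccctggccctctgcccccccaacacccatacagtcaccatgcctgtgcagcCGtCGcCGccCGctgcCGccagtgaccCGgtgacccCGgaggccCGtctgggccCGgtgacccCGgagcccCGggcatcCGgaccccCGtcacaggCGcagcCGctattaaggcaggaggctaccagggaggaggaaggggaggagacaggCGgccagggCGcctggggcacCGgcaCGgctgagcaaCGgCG

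The Mest window held 17 CpG dinucleotides, 0.59 of the number its base composition would give, at 62.7% G and C. The Copg2 window held 25 CpG (0.71 of that number) and the Casd1 window 23 (0.58). Of 32851 mouse promoter windows of the same length, 31.4% held at least 17 CpG, 21.5% at least 23 and 18.4% at least 25, and the median window held 7. The further upstream Mest start had 8 CpG in its window and the downstream Casd1 start had 5. Ppp1r9a had 48 and 10 in the windows of its 2 starts, and Asb4 had 6 and 8. The letters TGCCGC, the core that the imprint-keeping factor Zfp57 binds when methylated, were searched on both strands: they occurred 2 times in the main Mest window, 1 time each in those of Copg2 and upstream Casd1, and in 11.6% of all windows. A match describes the letters only. The counts do not tell which start of a gene was used, and no methylation was measured in the files used here.

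**Figure D1:**
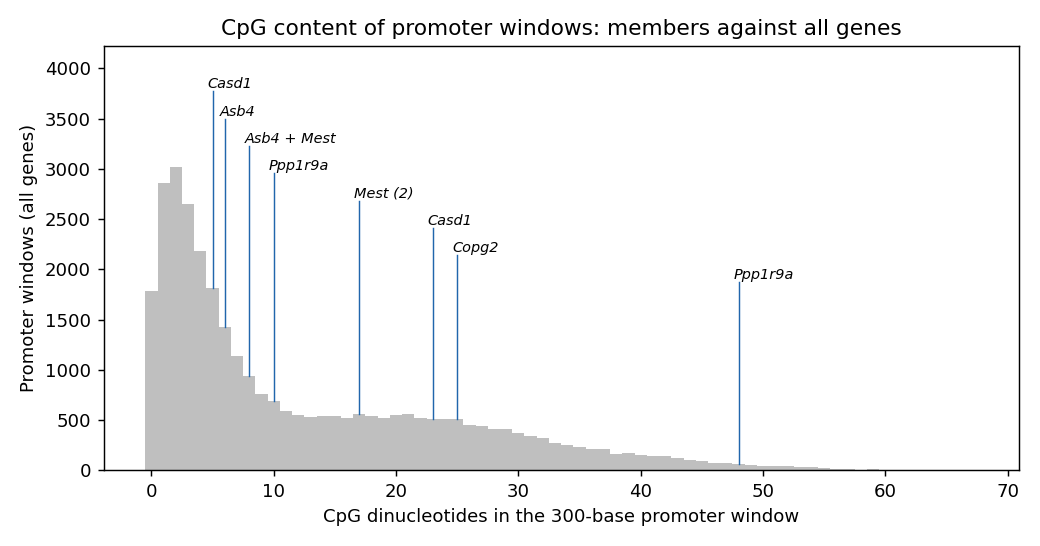
CpG dinucleotides per 300-base RefSeq promoter window (horizontal axis) against the number of windows of all genes (grey bars, vertical axis), with lines at the windows of the 5 members that have one. The main Mest windows, a pair of nearly identical starts, stand at 17, below upstream Casd1 at 23, Copg2 at 25 and 1 of the Ppp1r9a windows at 48.

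Mest also hosts a microRNA, miR-335, whose 98-base hairpin (chr6:30741299-30741396, plus strand) lies inside the Mest span. Its mature arms are shown because their host transcript was low in every edited line; capitals mark the seed, bases 2 to 8, which pairs with target messages.
mmu-miR-335-5p: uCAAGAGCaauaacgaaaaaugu
mmu-miR-335-3p: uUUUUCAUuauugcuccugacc
No other mature mouse miRNA in the RefSeq table had either seed. The libraries hold total RNA and not size-selected small RNA, so the Mir335 values below count reads over the hairpin, not the mature arms.

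The deposited counts summed to 34901511 in DKO clone 1, 27789693 in DKO clone 5, 27570136 in PRDX1MT and 37685798 in WT. Levels are in CPM, the reads of a gene relative to the TMM-scaled size of its library, where 3 reads were worth between 0.0729 and 0.121 CPM. A range in brackets after the value or fold of a single library is its 95% counting interval, which reflects counting error and nothing else. WT and PRDX1MT had no replicates, and the clones differed widely from each other: of 12317 genes with at least 100 reads in the pair, 1321 were higher and 940 lower in clone 1 than in clone 5 by the size rule given below. All 12 mesenchymal markers had more than 10 reads in every library, although Thy1 stood at 0.757 CPM in DKO clone 1, 1.38 CPM in DKO clone 5 and 0.884 CPM in PRDX1MT, against 29.0 CPM in WT. Thy1 thus moved with Mest, and its part in that result was not tested. Nt5e, Pdgfra and Prrx1 were also lower in all edited lines than in WT. Ly6a, Pdgfrb, Vim, Col1a2 and Twist1 were higher in all of them, and Eng, Cd44 and Col1a1 differed in direction between them. The summed CPM of the 12 was 22650 in DKO clone 1, 40620 in DKO clone 5 and 34360 in PRDX1MT, against 23180 in WT. The summed CPM of 3 immune markers was 5.97 in DKO clone 1, 4.76 in DKO clone 5 and 6.43 in PRDX1MT, against 2.94 in WT. It came mainly from Cd68 and Csf1r, while Ptprc had 0 reads in both DKO clones, 4 in PRDX1MT and 0 in WT. The sums of 3 endothelial markers were 0.337 and 0.363 in the DKO clones and 0.402 in PRDX1MT, against 0.121 in WT. They rest on few reads, mainly of Pecam1, which had 12 and 9 in the DKO clones and 6 in PRDX1MT, against 3 in WT. Cdh5 had 0 reads in both DKO clones and 2 in PRDX1MT, against 2 in WT. The immune and endothelial sums were both higher in all edited lines, as Mest was lower in them, and their part in that result was not tested. The 4 epithelial markers summed to 0.561 and 1.20 in the DKO clones, 1.81 in PRDX1MT and 1.87 in WT, with Epcam at 0 throughout. The 4 neural markers summed to 1.57 and 7.81 in the DKO clones, 4.14 in PRDX1MT and 5.03 in WT, and the 2 pluripotency markers to at most 0.224. Reads of Prdx1 were 392 and 332 CPM in the DKO clones and 31.2 CPM in PRDX1MT, against 399 CPM in WT. Dnmt3a had 31.3 and 25.9 CPM in the DKO clones, 80.9 CPM in PRDX1MT and 43.7 CPM in WT, and Dnmt3b had 2.83 and 2.03 CPM in the clones, 3.74 CPM in PRDX1MT and 3.28 CPM in WT. Where in these genes the clones were cut is not given in the labels, so counts over the whole gene do not check the knockout. In bulk RNA, fewer cells that transcribe a gene and less of its RNA in each cell cannot be told apart.

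The DKO clones were tested together against WT and against PRDX1MT by edgeR's quasi-likelihood test, in 1 fit of 19446 genes with Benjamini-Hochberg adjustment and a threshold of 0.05. Single libraries were compared without a p. There a gene passed the size rule when its log2 ratio was at least 1 in size, its reads in the pair summed to at least 100 and its counting interval excluded 0. Of the 8 members, 5 entered the test (Mest, Copg2, Peg10, Sgce and Casd1). The others were too low for it: Klf14 had 0 reads in all libraries, Ppp1r9a at most 2 and Asb4 at most 12. In DKO against WT, 1 of the 5 fell (Mest) and 0 rose, where 0.453% of all tested genes fell. At an unadjusted p under 0.05, 3 of the 5 were lower, where 3.51% of all tested genes were. By the size rule 3 of the 5 were lower in DKO clone 1, 3 in DKO clone 5 and 3 in PRDX1MT, each against WT. Of all genes with enough reads, 7.56% were lower in clone 1, 8.58% in clone 5 and 7.57% in PRDX1MT, while 8.4% were higher in clone 1, 5.69% in clone 5 and 7.25% in PRDX1MT. No member was higher. The 3 lower ones were Mest, Peg10 and Sgce in both clones, and Mest, Peg10 and Casd1 in PRDX1MT. Each of these comparisons uses the same WT library, and both tests use the same DKO libraries.

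**Figure D2:**
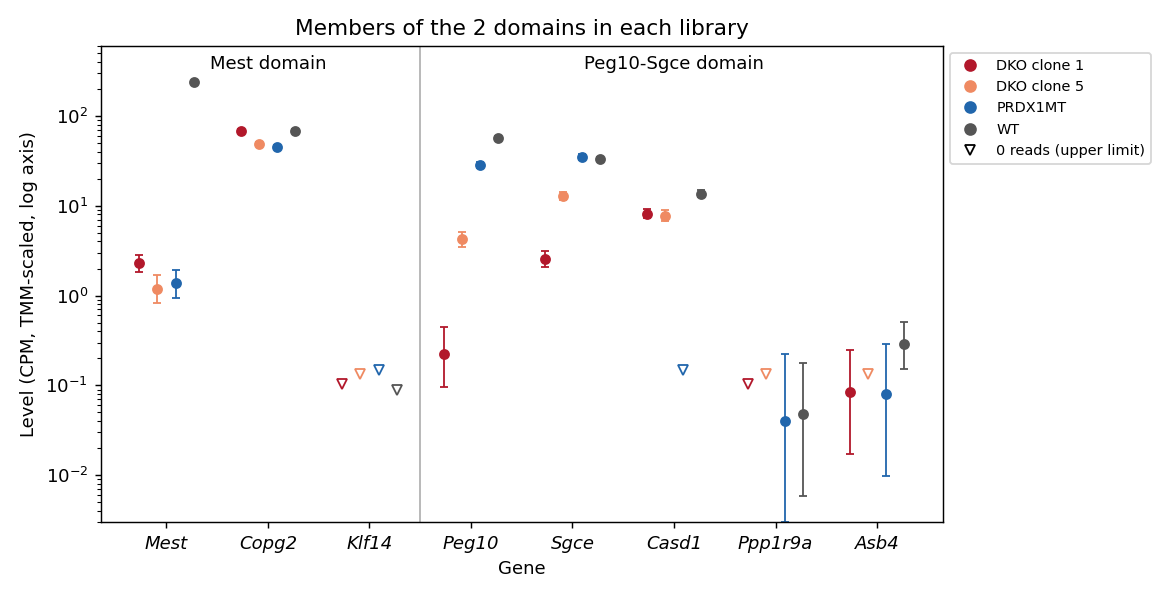
Level of each member in each library (vertical axis, TMM-scaled CPM on a log axis), with points for DKO clone 1, DKO clone 5, PRDX1MT and WT, 95% Poisson intervals as bars, and open triangles at the upper limit where a library had 0 reads. Mest is between 1.20 and 2.30 CPM in all 3 edited libraries against 240 CPM in WT, Peg10 and Sgce are lowest in DKO clone 1, and Casd1 has 0 reads in PRDX1MT.

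Mest was almost silent in every edited line. Mest (ENSMUSG00000051855, GRCm38/mm10 chromosome 6, 30723547 to 30748465, plus strand) encodes a protein of the alpha/beta-hydrolase fold and is a classic paternally expressed gene of mesodermal tissue. It had 82 reads in DKO clone 1, 33 in DKO clone 5 and 34 in PRDX1MT, against 9875 in WT, or 2.30 and 1.20 CPM in DKO clones 1 and 5 and 1.37 CPM in PRDX1MT, against 240 CPM in WT. The 3 edited libraries lay close together and far below WT. The DKO clones averaged 1.75 ± 0.778 CPM (SD, n = 2), and the log2 ratio of DKO over WT was -7.09 (SE 0.57, adjusted p = 0.0107 by edgeR quasi-likelihood). As a fold, Mest was 104-fold lower in DKO clone 1 (84.0 to 131), 200-fold lower in DKO clone 5 (143 to 291) and 176-fold lower in PRDX1MT (126 to 254) than in WT. Of the 11548 genes with at least 100 reads in WT, only 9 had a lower ratio to WT than Mest in PRDX1MT. In clones 5 and 1 of DKO there were 16 and 41 such genes. These ratios used a prior count of 2, which limits how low a gene with few WT reads can go even at 0 reads. The rank of Mest thus rests in part on its 9875 reads in WT. DKO over PRDX1MT gave a log2 ratio of 0.36 (SE 0.57, adjusted p = 1.00 by edgeR), so a difference between the edited lines was not detected. The median of DKO over PRDX1MT was 0.56 on the log2 scale over the 1048 tested genes of chromosome 6, and 0.04 over all genes. For Mest, the adjusted p against WT was 0.149 when genes had to reach 1 CPM in 2 libraries, a filter under which 0 of all genes were called. It ranged from 1.68e-30 to 0.149 over the alternatives that gave one.

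Reads over the Mir335 hairpin were few in every library and fewest in the edited lines. There were 0 reads in both DKO clones and 2 in PRDX1MT, against 17 in WT. Taken against 3 counts over both clones, the hairpin was 8.70-fold lower in DKO than in WT, and the counting interval began at 6.34-fold. It was 5.14-fold lower in PRDX1MT with a wide counting interval (1.22 to 45.9). In the test it did not pass (adjusted p = 0.737 by edgeR), and the level in WT, 0.413 CPM, left little to compare. The other annotated RNA genes inside the Mest span, Gm44296, Gm27522 and Gm27568, held at most 2 reads in a library.

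Copg2, which runs towards Mest from the other side, passed no test and no size rule. Copg2 (ENSMUSG00000025607, 30747554 to 30896794, minus strand) encodes a gamma subunit of the COPI coat, which carries vesicles from the Golgi apparatus back to the endoplasmic reticulum. It had 2438 reads in DKO clone 1, 1330 in DKO clone 5 and 1119 in PRDX1MT, against 2798 in WT. The levels were 68.4 CPM in DKO clone 1, 48.3 CPM in DKO clone 5 and 45.0 CPM in PRDX1MT, against 68.0 CPM in WT, so clone 1 stood at the WT level and the other edited lines below it. The DKO mean was 58.3 ± 14.2 CPM (SD, n = 2), and the log2 value of DKO over WT was -0.22 (SE 0.46, adjusted p = 1.00 by edgeR). The ratio of PRDX1MT over WT was -0.60 on the log2 scale, under the size rule. Mest and Copg2 share 912 exon bases at their 3′ ends, 23.1% of the Mest exons and 17.8% of the Copg2 exons. How reads over shared bases were counted is not given in the sources used here, and their part in the Copg2 counts was not tested. Copg1, the paralog with the same task in the coat, had 321 and 317 CPM in the DKO clones and 212 CPM in PRDX1MT, against 254 CPM in WT. Of the 9 COPI coat genes, all tested, 0 passed the test in DKO against WT and 0 passed the size rule in PRDX1MT. Their median log2 ratio was -0.16 in DKO over WT and -0.05 in PRDX1MT over WT, beside 0.03 and -0.04 over all genes.

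Klf14, a single-exon transcription factor gene 59228 bases beyond Copg2, had 0 reads in all 4 libraries. A count of 0 allows up to 3 reads, or 0.0841 and 0.109 CPM in the DKO clones, 0.121 CPM in PRDX1MT and 0.0729 CPM in WT. Its family was measured more broadly: of 17 Kruppel-like factors, 14 were tested. None passed in DKO against WT, with a median log2 ratio of 0.58, while 2 had an unadjusted p under 0.05. Klf16 stood at 1.37 on that scale (SE 0.47, adjusted p = 0.680 by edgeR) and Klf10 a value of 1.39 (SE 0.56, adjusted p = 0.893 by edgeR). In PRDX1MT 6 of the 13 with enough reads were higher than in WT by the size rule and 0 were lower, with a median log2 ratio of 0.86, where 7.25% of all genes with enough reads were higher. Klf4, a factor used in reprogramming to pluripotency, had 20627 reads in PRDX1MT against 10835 in WT, a log2 ratio of 1.66.

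Peg10 was nearly lost in DKO clone 1, strongly reduced in clone 5 and less so in PRDX1MT. Peg10 (ENSMUSG00000092035, 4747306 to 4760517, plus strand) derives from the gag and pol genes of a retrotransposon and is required for the mouse placenta. It had 8 reads in DKO clone 1, 117 in DKO clone 5 and 707 in PRDX1MT, against 2352 in WT. The levels were 0.224 CPM in DKO clone 1, 4.25 CPM in DKO clone 5 and 28.4 CPM in PRDX1MT, against 57.2 CPM in WT. No edited line overlapped WT, and the clones did not overlap each other in their counting intervals. Clone 1 was 255-fold lower than WT (129 to 591) and clone 5 was 13.5-fold lower (11.2 to 16.3). Between the clones the ratio was 18.9-fold (9.30 to 44.9), lower in clone 1. With that spread the DKO mean was 2.24 ± 2.85 CPM (SD, n = 2), and DKO over WT, a log2 ratio of -4.69 (SE 1.19), did not pass (adjusted p = 0.288 by edgeR). DESeq2 called it (adjusted p = 0.000989), as did edgeR with no filter on low counts (adjusted p = 1.67e-13), and the adjusted p over the alternatives that gave one ran from 1.67e-13 to 0.918. PRDX1MT over WT had a log2 ratio of -1.01 (-1.13 to -0.89), just past the size rule and at -0.9997 just short of it with median-of-ratios scaling. DKO over PRDX1MT was -3.68 on the log2 scale (SE 1.16, adjusted p = 0.693 by edgeR).

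Sgce, which starts 98 bases from Peg10 on the other strand, followed Peg10 in the DKO clones but not in PRDX1MT. Sgce (ENSMUSG00000004631, 4674350 to 4747207, minus strand) encodes epsilon-sarcoglycan, a membrane protein whose loss causes myoclonus-dystonia in humans. It had 91 reads in DKO clone 1 and 356 in DKO clone 5, with 869 in PRDX1MT and 1362 in WT. The levels were 2.55 and 12.9 CPM in the clones, 34.9 CPM in PRDX1MT and 33.1 CPM in WT, so PRDX1MT and WT differed by no more than their counting error. Clone 1 was 13.0-fold lower than WT (10.5 to 16.2), clone 5 was 2.56-fold lower (2.28 to 2.89), and clone 1 stood 5.07-fold below clone 5 (4.01 to 6.45). The DKO mean was 7.74 ± 7.34 CPM (SD, n = 2). DKO over WT gave a log2 ratio of -2.10 (SE 0.81, adjusted p = 0.852 by edgeR), and the adjusted p over the alternatives that gave one ran from 0.00954, with no filter, to 0.999. The log2 ratio of PRDX1MT over WT was 0.08, and -0.20 with total-count scaling, which lowers every PRDX1MT ratio by 0.28.

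Within a library, the share of the joint Peg10 and Sgce reads that fell on Peg10 does not depend on library scaling. Peg10 held 8.08% of the 99 joint reads in DKO clone 1 (exact binomial interval 3.55% to 15.3%) and 24.7% of 473 in DKO clone 5 (20.9% to 28.9%). In PRDX1MT the share was 44.9% of 1576 reads (42.4% to 47.4%), against 63.3% of 3714 in WT (61.8% to 64.9%). The 4 intervals did not overlap. Per length, in reads per exon base, Peg10 stood at 0.14 of the Sgce level in DKO clone 1 and 0.523 in DKO clone 5. It stood at 1.29 in PRDX1MT, against 2.75 in WT, so by this measure the order of the 2 genes was turned in both DKO clones. By reads alone, Peg10 was below Sgce in PRDX1MT too. Exon length here pools all annotated transcripts, 10612 bases over 13 for Sgce and 6667 over 3 for Peg10. Which transcripts were in use was not tested, and the order per length depends on it. The reads come from single libraries and were not tested over replicates.

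**Figure D3:**
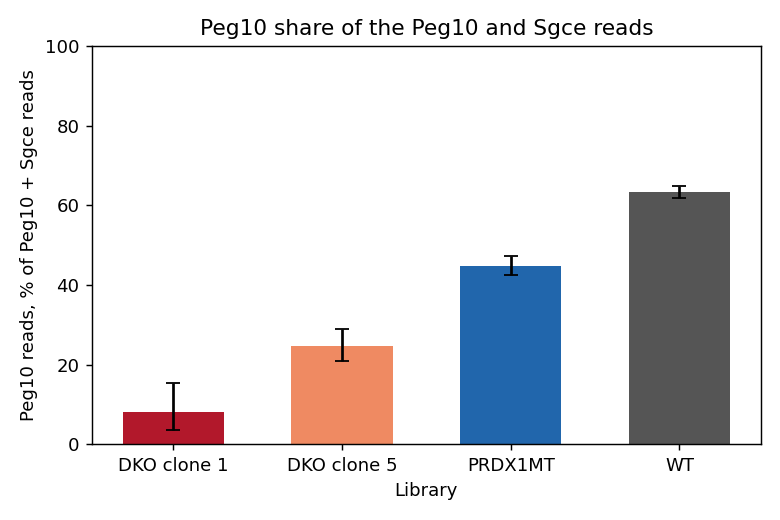
Peg10 reads as a percentage of Peg10 plus Sgce reads (vertical axis, from 0) in DKO clone 1, DKO clone 5, PRDX1MT and WT (horizontal axis), with 95% exact binomial intervals as bars. The share is 8.08% in clone 1, 24.7% in clone 5 and 44.9% in PRDX1MT, against 63.3% in WT.

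Of 12 genes of the sarcoglycan and dystroglycan complex, which links the cytoskeleton to the matrix, 10 were tested and 0 passed in DKO against WT, with a median log2 ratio of 0.25. Dmd, the gene of dystrophin, had 0 reads in both DKO clones and 2 in PRDX1MT, against 135 in WT (adjusted p = 0.0601 by edgeR in DKO against WT). Sspn, the gene of sarcospan, was at 1.35 on the log2 scale in DKO over WT (SE 0.47, adjusted p = 0.693 by edgeR). In PRDX1MT 1 of the 10 was lower by the size rule (Dmd), with a median of 0.41. Of 21 retrotransposon-derived Gag genes, 19 were in the files and 12 tested, with 0 calls in DKO against WT and a median of 0.22. Rtl1, another paternally expressed gene of retrotransposon origin, had 1 and 4 reads in the DKO clones and 10 in PRDX1MT, against 260 in WT, a DKO over WT log2 ratio of -6.20 (SE 0.99, adjusted p = 0.0593 by edgeR). In PRDX1MT 2 of the 8 Gag genes with enough reads were lower than in WT, Peg10 and Rtl1, and 2 were higher, Rtl3 and Pnma1.

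Casd1 was the member that set PRDX1MT apart. Casd1 (ENSMUSG00000015189, 4600839 to 4643355, plus strand) encodes the enzyme that adds O-acetyl groups to sialic acids, the outermost sugars of cell-surface glycans. It had 290 reads in DKO clone 1, 214 in DKO clone 5, 0 in PRDX1MT and 560 in WT. The DKO clones agreed closely at 8.13 and 7.77 CPM (mean 7.95 ± 0.254 SD, n = 2), against 13.6 CPM in WT, and the log2 ratio of DKO over WT was -0.77 (SE 0.56, adjusted p = 1.00 by edgeR). Taken against 3 counts, PRDX1MT was 113-fold lower than WT, and the counting interval began at 91.5-fold. Against the same floor, the pooled DKO reads were 66.1-fold higher than PRDX1MT, with a counting interval that began at 53.6-fold. Casd1 was the 1 member called in DKO against PRDX1MT (adjusted p = 0.0410 by edgeR), where 0.0103% of all genes rose and 0.195% fell. No member fell there. That call was missed with median-of-ratios scaling (adjusted p = 0.0510), total-count scaling (0.0684), a filter of 1 CPM in 2 libraries (0.165) and a fit of only the 2 groups (0.0800), while the adjusted p over all alternatives ran from 1.22e-09 to 0.165. Casd1 and Stmn2 were the only 2 genes with 0 reads in PRDX1MT and at least 100 in each other library. Gm44432, a transcript of uncertain status inside Casd1, had 0 and 5 reads in the DKO clones and 0 in PRDX1MT, against 16 in WT. Of 10 genes of sialic acid synthesis and O-acetylation, 9 were tested. None passed in DKO against WT (median log2 ratio 0.15), and Casd1 was the 1 of 8 with enough reads that was lower in PRDX1MT than in WT (median -0.31).

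Ppp1r9a and Asb4, on the far side of Peg10, were at or near 0 in every line. Ppp1r9a (4902917 to 5165661, plus strand), which encodes neurabin, a protein phosphatase 1 partner of neurons, had 0 reads in both DKO clones, 1 in PRDX1MT and 2 in WT. Its paralog Ppp1r9b, the gene of spinophilin, carried the family's reads with 204 and 190 CPM in the DKO clones and 257 CPM in PRDX1MT, against 131 CPM in WT. Asb4 (5383386 to 5433022, plus strand), an ankyrin-repeat adaptor of cullin 5 ubiquitin ligases, had 3 and 0 reads in the DKO clones and 2 in PRDX1MT, against 12 in WT. At these depths no difference of Asb4 could be judged between PRDX1MT and WT, whose ratio had an interval of 0.81-fold to 33.4-fold lower. The same held for DKO clone 1 against WT (0.94-fold to 19.1-fold lower). With both clones pooled, Asb4 was 6.14-fold lower than in WT (1.66 to 33.9), on 3 reads against 12, and it was too low for the test. Of the 5 genes of protein phosphatase 1 and its neurabins, 4 were tested with 0 calls in DKO against WT (median -0.15) and 0 of 4 past the size rule in PRDX1MT (median -0.38). Of the 22 ASB and cullin 5 ligase genes, 13 were tested with 0 calls (median 0.09), and 1 of 10 passed the size rule in PRDX1MT, Asb3, which was lower.

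Compared per length, in CPM per kilobase of annotated exon, Mest led the members in WT at 60.8, followed by Copg2 at 13.3, Peg10 at 8.57, Casd1 at 3.37 and Sgce at 3.12. Casd1 and Sgce in WT were neighbours in that order and nearly equal. The lengths pool all annotated transcripts of a gene, so the order of genes at similar levels depends on which transcripts were in use. In PRDX1MT Copg2 led at 8.78, before Peg10 at 4.26 and Sgce at 3.29, while Mest stood at 0.346. In the DKO clones Copg2 again led, at 13.4 in clone 1 and 9.43 in clone 5, and Casd1 was second at 2.01 and 1.93. Mest, at 0.583 and 0.304, lay above Peg10 at 0.0337 in clone 1 and below Peg10 at 0.637 in clone 5.

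The genes around the 2 domains differed in kind. Within 1 Mb of the Mest domain lay 59 other annotated genes, of which 27 were tested and 0 passed in DKO against WT, with a median log2 ratio of 0.27. That is close to the median of 0.28 over the 1048 tested genes of chromosome 6, beside 0.03 over all 19446. In PRDX1MT 0 of 15 neighbours with enough reads were lower by the size rule and 1 was higher, with a median of -0.13 beside -0.28 over chromosome 6. Podxl, the gene that was higher, was named after its value was seen and had 155 reads in PRDX1MT against 42 in WT. In DKO clone 1, 6 of 18 neighbours were higher and 0 lower, where 8.4% of all genes with enough reads were higher. In DKO clone 5, 0 of 15 passed in either direction. The nearest of the 6 were Gm27019, Lncpint, Gm13833 and Gm37728, which are annotated as non-coding or unconfirmed transcripts. Gm13833 and Gm37728 lie inside the Lncpint span, so the 6 are not 6 separate loci. Lncpint, a long non-coding RNA gene 123.5 kb from the domain, had 3023 reads in clone 1, 1164 in clone 5 and 1174 in PRDX1MT, against 1362 in WT. Cep41, a gene of the centrosome 29.8 kb from Mest, had 20.7 and 19.8 CPM in the DKO clones and 10.8 CPM in PRDX1MT, against 16.8 CPM in WT, and did not pass.

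Around the Peg10-Sgce domain many neighbours were low in the edited lines. Of 42 other annotated genes within 1 Mb, 13 were tested and 1 fell in DKO against WT. Their median log2 ratio was -2.13, beside 0.28 over chromosome 6. In PRDX1MT 6 of 9 with enough reads were lower and 0 higher, with a median of -1.73 beside -0.28 over chromosome 6. In DKO clone 1, 6 of 9 were lower and 1 higher (median -1.69, beside 0.22 over chromosome 6). In DKO clone 5, 5 of 9 were lower and 1 higher (median -2.06, beside 0.26 over chromosome 6). Of all genes with enough reads, 7.57% were lower in PRDX1MT, 7.56% in clone 1 and 8.58% in clone 5. Gm43921 lies inside the Col1a2 span, so the 9 are not 9 separate loci. The Gm44250 span ends at 5220486 and the Pon3 span begins at 5220852, both on the minus strand. Pdk4, a kinase that restrains the use of glucose by mitochondria, lies 50.3 kb beyond Asb4 and had 458 and 164 reads in the DKO clones and 62 in PRDX1MT, against 1709 in WT. Relative to WT it was 3.23-fold lower in DKO clone 1 (2.91 to 3.59), 6.97-fold lower in DKO clone 5 (5.94 to 8.24) and 16.7-fold lower in PRDX1MT (12.9 to 21.8). The uncharacterised gene Gm44250 had 30 reads in DKO clone 1, 23 in DKO clone 5 and 8 in PRDX1MT, against 151 in WT. Pon3, a paraoxonase gene, had 38 and 27 reads in the DKO clones and 10 in PRDX1MT, against 223 in WT, which was 5.09-fold lower in clone 1, 5.53-fold in clone 5 and 13.5-fold in PRDX1MT. All 3 genes, of which Gm44250 and Pon3 are adjacent, were thus lowest in PRDX1MT, like Casd1 and unlike Peg10 and Sgce. Col1a2, a chain of type I collagen 59.3 kb from Casd1 on the other side, had 277943 and 381379 reads in the DKO clones and 212229 in PRDX1MT, against 261927 in WT, and passed the size rule in clone 5, where it was 2.18-fold higher.

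Pon2, and farther out Dync1i1 and Slc25a13, were named after their values were seen. Pon2, a gene 84.9 kb from Asb4, was not low in the DKO clones. It had 1500 reads in DKO clone 1, 747 in DKO clone 5 and 434 in PRDX1MT, against 745 in WT. The levels were 42.1 and 27.1 CPM in the clones and 17.45 CPM in PRDX1MT, against 18.1 CPM in WT. Pon2 passed the size rule only in clone 1, where it was 2.32-fold higher than in WT (2.13 to 2.54). Dync1i1, a dynein chain gene of neurons 292.6 kb from Asb4, was the 1 neighbour called in DKO against WT (adjusted p = 0.0441 by edgeR), with 0 reads in both clones and 30 in PRDX1MT, against 170 in WT. Taken against 3 counts over both clones, Dync1i1 was 87.0-fold lower in DKO than in WT, and the counting interval began at 70.0-fold. It was 3.43-fold lower in PRDX1MT (2.31 to 5.23). Slc25a13, a mitochondrial aspartate and glutamate carrier gene 608.2 kb away, had 48 reads in DKO clone 1, 1 in DKO clone 5 and 77 in PRDX1MT, against 536 in WT. Here clone 5 was the lower of the clones, the opposite of their order at Peg10 and Sgce.

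**Figure D4:**
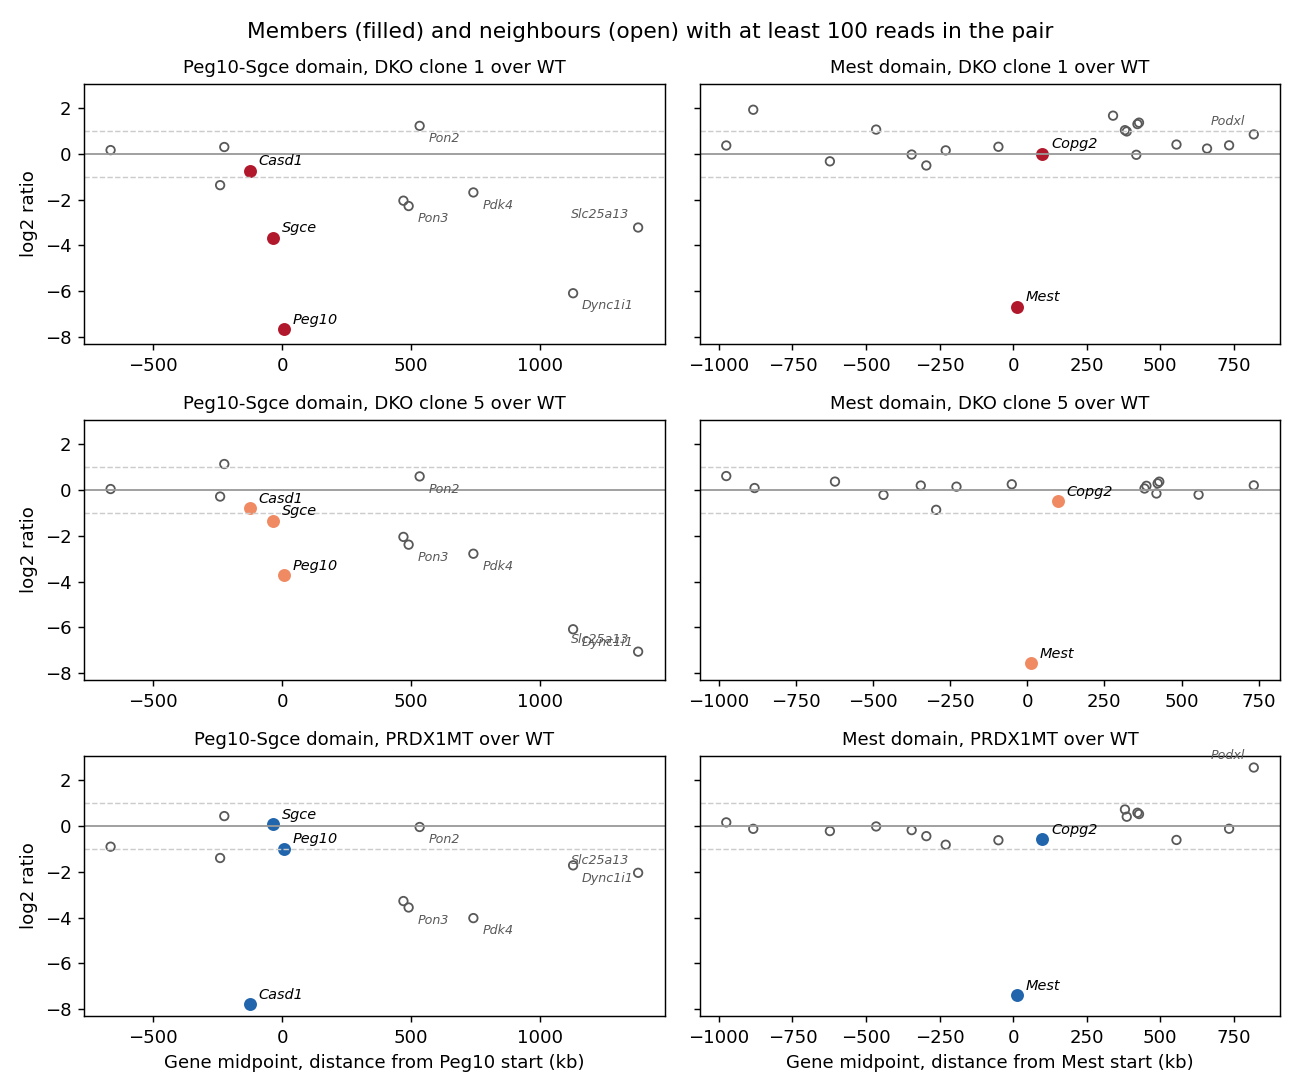
TMM-scaled log2 ratio over WT (vertical axis, prior count 2) of members (filled) and neighbours (open) with at least 100 reads in the pair, against the distance of the gene's midpoint from the annotated start of Peg10 (left column) or Mest (right column) in kb. Rows show DKO clone 1, DKO clone 5 and PRDX1MT; dashed lines mark the size rule, and points of genes with 0 reads (Casd1 in PRDX1MT, Dync1i1 in both clones) rest on the prior count. Mest lies far below its neighbours in all rows. In the left column several neighbours are low too, with Peg10 below all of them in DKO clone 1 and Casd1 below all of them in PRDX1MT.

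The genes whose pattern over the 4 libraries was most like that of a member were sought among 13542 protein-coding genes, by the Euclidean distance of log2 CPM after subtracting each gene's mean. Nearest to Mest were Cdkn2a at 0.70, Ptprz1 at 0.72 and Sv2c at 0.74. All 3 had 0 reads in both DKO clones and in PRDX1MT, against 434, 453 and 298 reads in WT. Nearest to Casd1 were Phyh at 1.83, Rgs4 at 2.05 and Pik3r5 at 2.20, with 0, 1 and 0 reads in PRDX1MT. Nearest to Peg10 were Ptprq at 0.99, Adamts9 at 1.30 and Bnc2 at 1.57. Bnc2, a zinc finger protein gene, had 10 and 29 reads in the DKO clones and 351 in PRDX1MT, against 1361 in WT. The distances used a prior count of 2, which sets the values of genes at 0 reads, so the order among such genes rests on it. With 4 libraries such likeness is a description of these lines only.

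A list of 10 factors that keep imprints was looked at beside the members. Of these, 9 were tested, 0 passed in DKO against WT (median log2 ratio 0.09) and 0 of 9 passed the size rule in PRDX1MT (median -0.16). Of all tested genes 0.453% fell and 3 rose in DKO against WT. By the size rule 7.57% of all genes with enough reads were lower and 7.25% higher in PRDX1MT. So 0 calls among 9 genes tells little about these factors. Uhrf1, which brings Dnmt1 to newly copied DNA, had a log2 ratio of 1.22 in DKO over WT (SE 0.81), Dnmt1 one of 0.38 (SE 0.62) and Zfp445, a zinc finger protein that binds imprinting control regions, one of -0.45 (SE 0.43), each with an adjusted p of 1.00 by edgeR.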

How the data were processed

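Total RNA of 4 libraries was sequenced after removal of ribosomal RNA with a stranded kit, per the labels' protocols. The aligner was STAR 2.6.1d and the genome build mm10, per the submitters' processing notes. How reads were assigned to genes (program, annotation, use of strand) is not given in the sources used here. Each deposited file holds the authors' raw counts as whole numbers, for 54532 Ensembl identifiers, of which 54495 were found in GENCODE M21, the source of symbols, coordinates and exon lengths. Overlapping genes are therefore uncertain.

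Counts were analysed with R 4.3.3, edgeR 4.0.16, limma 3.58.1 and DESeq2 1.42.0, Python 3.11.15 and scipy 1.17.1. The 3 groups were fitted together (TMM, filterByExpr by group), which left 1 residual degree of freedom, given by the pair of DKO clones. The prior degrees of freedom were 6.54 and the common dispersion 0.187. WT and PRDX1MT are taken to vary as the clones do, so p-values rest on the spread of these clones alone. The method was checked on simulated data with a dispersion set below the fitted one, which does not show its error rates for these data. Size-rule ratios used a prior count of 2, exact conditional binomial intervals and a floor of 3 counts for genes at 0. Reads amplified by PCR and not marked by molecular identifiers are not independent, so intervals cover counting error only. A floor leaves out the counting error of the library it is compared with.

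Named genes were the members, RNA genes inside them, paralogs, up to 4 passing neighbours per domain nearest first, up to 3 per list by smallest p, and the 3 nearest patterns. Genes that a list's size-rule count comprises were named after their values were seen, as were Gm44432 as an example, Thy1 and Cep41. The members and lists were chosen with earlier results of these data known. Alternatives were median-of-ratios and total-count scaling, DESeq2, 2 other filters, a fit of only the 2 groups, dropping either clone, and other prior counts, ratios and read minimums.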

Additional observations from a re-analysis of the deposited data

How the results depend on the processing

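No paired analysis was possible because the labels give no pairing of the libraries. The depth limits Klf14, Ppp1r9a, Asb4 and Mir335, and the single WT and PRDX1MT libraries limit every comparison. The cause of the changes below was not tested, except that other ratio and read minimums change how many genes can pass.

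In DKO against WT, 1 member was lower and 0 were higher; with no filter 3 were lower, with DESeq2 2, and with a filter of 1 CPM in 2 libraries 0. Over all genes the 88 lower and 3 higher became 405 and 130 with no filter, 206 and 56 with DESeq2, and 0 and 0 with the 1 CPM filter. In DKO against PRDX1MT the 0 lower members became 2 with no filter and 1 with DESeq2, and the 1 higher member became 0 with median-of-ratios scaling, total-count scaling, the 1 CPM filter or only the 2 groups. Over all genes the 38 lower and 2 higher became 13 and 0 with median-of-ratios scaling, 7 and 0 with total-count scaling, 267 and 137 with no filter, 0 and 0 with the 1 CPM filter, 11 and 0 with only the 2 groups, and 154 and 61 with DESeq2.

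By the size rule 961 genes were lower and 920 higher in PRDX1MT than in WT; these became 1734 and 544 with total-count scaling, 238 and 159 with a log2 ratio of at least 2, 1758 and 1855 with at least 20 reads, and 450 and 463 with at least 500. In DKO clone 1 the 978 lower and 1087 higher became 340 and 271, 1997 and 1825, and 439 and 668 under those 3 thresholds, and in DKO clone 5 the 1083 lower and 719 higher became 403 and 88, 1888 and 1293, and 514 and 474. Members lower by the size rule stayed at 3 in DKO clone 1 and at 2 to 3 in DKO clone 5 and PRDX1MT under every alternative run.

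With total-count scaling the sign turned in 2 cases near 0: the log2 ratio of Sgce in PRDX1MT over WT, at -0.197, and that of Copg2 in DKO clone 1 over WT, at -0.0879. Leaving out a clone left no degree of freedom for a test. Without clone 1, Mest in DKO over PRDX1MT, uncalled, turned to -0.19 on the log2 scale, and without clone 5, Copg2 in DKO over WT, also uncalled, turned to 0.0078. Peg10 in DKO over WT then ranged from -7.97 (clone 1) to -3.75 (clone 5) on the log2 scale.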
